A study of Mus musculus with 12 samples.

Results

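The semaphorins, plexins and neuropilins were examined in RNA-seq libraries of mouse embryonic hearts and heart organoids (HOs). All rows named Sema3 to Sema7 with a letter, Plxna to Plxnd with a number, Nrp1 or Nrp2 were taken, which gave 32 of the 26190 rows of the deposited table. They comprised 20 semaphorins, 9 plexins, 2 neuropilins and 1 non-coding RNA, Plxna4os1, which lies on the opposite strand of Plxna4 and matched the rule by its name alone. The groups were atria and ventricles dissected from E11.5 embryonic hearts (E11.5H), and the parts of HOs that looked like either chamber (atrium-like, ventricle-like) after 13 days of culture, with 3 libraries in each of the 4 groups and C57BL/6 given as the strain of every library. HOs are beating structures that grow from embryoid bodies of mouse embryonic stem cells on a laminin and entactin gel with FGF4, with BMP4, the Wnt activator BIO and LIF added for the last days of culture. They form outside the embryo and without its circulation. The study's methods name stem cell lines from C57BL/6 mice and from F1 hybrids of C57BL/6 with JF1. The cell line behind each HO library and the number of hearts or HOs per library are not given in the sources used here. The p-values therefore measure only the spread between these libraries.

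Semaphorins are guidance ligands. Class 3 members are secreted, those of classes 4 to 6 span the membrane, and Sema7a is held by a lipid anchor. Plexins are the signalling receptors and regulate small GTPases and the cytoskeleton, while Nrp1 and Nrp2 are co-receptors that bind most class 3 semaphorins as well as VEGF. In the heart this system is known for guiding outflow tract septation (Sema3c), vessel patterning (Sema3e and Plxnd1), sympathetic innervation (Sema3a), pulmonary vein patterning (Sema3d) and trabeculation (Sema6d).

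Each library held 23971258 to 30540993 fragments counted in genes, so that a count of 0 allowed up to 0.0982 to 0.125 CPM, counts scaled to the library total. The 6 ventricular markers summed to 572 to 888 FPKM in atria and 8147 to 8245 FPKM in ventricles of E11.5H, and the 7 atrial markers to 13387 to 16616 and 8286 to 8707 FPKM, in the order of the labels. The HO parts were poor in cardiomyocyte markers. The summed FPKM of 10 cardiomyocyte genes ranged from 11912 to 15097 across E11.5H libraries, from 233 to 907 across atrium-like parts and from 1445 to 3643 across ventricle-like parts, with 9 or 10 of the 10 genes at 1 FPKM or more in every library. The 7 atrial markers summed to less in atrium-like parts (149 to 494 FPKM) than in ventricle-like parts (628 to 1918 FPKM), which goes against the labels of the HO parts. The 6 ventricular markers summed to 44.8 to 167 FPKM in atrium-like and 182 to 752 FPKM in ventricle-like parts, in the order of the labels, so that both lists were lower in atrium-like parts. The 8 hepatocyte and visceral endoderm markers summed to 1.08 to 4.84 FPKM in E11.5H, where Alb, Foxa2 and Hnf4a were at or near 0, and to 30.3 to 11698 FPKM in HOs. Replicates 1 and 3 of the atrium-like parts and replicate 3 of the ventricle-like parts stood apart at 11698, 4083 and 4114 FPKM. Replicate 3 of the ventricles of E11.5H was rich in erythroid markers, at 71736 FPKM against 7272 to 18854 FPKM in the other E11.5H libraries. In bulk libraries, fewer cells of a type and less RNA per cell cannot be told apart, and this holds for every level below.

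The embryonic heart expressed most of the family. Levels are given as FPKM, the number of fragments scaled to transcript length and library total, as deposited. In E11.5H, Nrp1 was the most abundant member at 36.6 ± 3.26 FPKM (SD, n = 3) in atria and 32.3 ± 0.862 FPKM in ventricles, which made up 92.4% and 93.6% of the neuropilin signal. Among the receptors, Plxnb2 at 29.8 ± 3.65 and 28.0 ± 2.26 FPKM and Plxnd1, the receptor of Sema3e, at 19.4 ± 1.84 and 18.4 ± 1.15 FPKM followed in atria and ventricles, respectively. The leading semaphorin depended on the chamber, with Sema3d at 19.9% of the summed semaphorin FPKM in atria and Sema3c at 25.9% in ventricles. Sema3e, Sema3g, Sema4a, Sema4f, Sema4g, Sema6b, Sema7a and Plxnb3 stayed below 1 FPKM in all 6 libraries of E11.5H. Plxna4os1 remained at or below 0.417 FPKM in all 12 libraries and shared no exon base with Plxna4.

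Summed over the family, semaphorins reached 53.0 ± 7.93 FPKM in atria, 54.9 ± 4.58 in ventricles, 86.7 ± 22.7 in atrium-like parts and, in ventricle-like parts, 68.6 ± 18.3 FPKM (mean ± SD of 3 libraries). The corresponding sums were 80.6 ± 9.26, 72.2 ± 4.42, 73.3 ± 10.6 and 67.2 ± 5.93 FPKM for plexins. For neuropilins they were 39.7 ± 4.73, 34.6 ± 1.41, 14.8 ± 12.99 and 27.3 ± 14.4 FPKM. The plexin sums were of similar size in all groups, whereas the semaphorin and neuropilin sums spread widely between HO libraries, and the map of levels shows which members carried them.

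**Figure D1:**
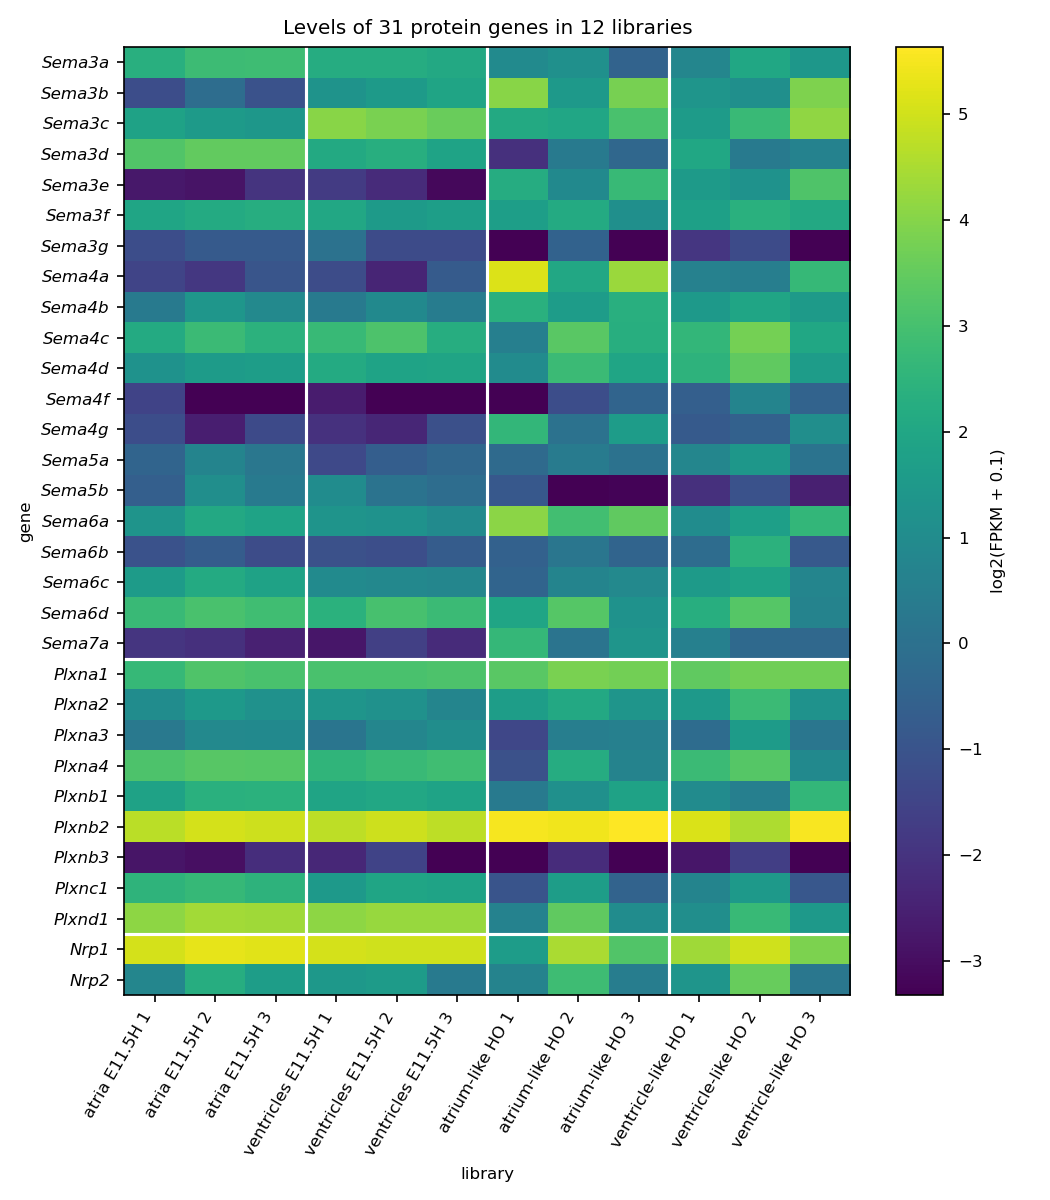
The map plots log2(FPKM + 0.1) of the 31 protein genes of the family (vertical axis) in each of the 12 libraries (horizontal axis, white lines separate the groups). The 6 libraries of E11.5H look more alike than those of HOs. They differ in the chamber-dependent semaphorins and in some other members, such as Nrp2 from 1.20 to 4.68 FPKM. HO libraries differ from each other, with Sema4a at 35.3 FPKM in atrium-like replicate 1 and at 1.34 FPKM in ventricle-like replicate 2.

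The first comparison asked which ligands and receptors differ between the embryonic chambers. Of the 31 members with enough counts to be tested, 3 were called, which required an adjusted p (Benjamini-Hochberg, edgeR's quasi-likelihood test) under 0.05 together with a log2 fold change beyond 1 in either direction, and all 3 were class 3 semaphorins. In this comparison 4.9% of all 14536 genes tested were called, 2.92% as higher and 1.97% as lower in atria. Of these, 1 was higher in atria (Sema3d) and 2 were lower (Sema3c and Sema3b). The median log2 fold change of the members was 0.09 and that of all genes tested 0.01.

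Sema3c, a secreted ligand known for its role in outflow tract septation, had 16.5, 14.2 and 12.01 FPKM in the 3 ventricle libraries and 3.52, 2.82 and 2.57 FPKM in the 3 atrial libraries. The groups did not overlap, and Sema3c fell by 2.33 on the log2 scale from ventricles to atria (standard error 0.148, edgeR adjusted p = 6.12e-06), which is a level 5.02-fold higher in ventricles. Sema3d, a paralog known for excluding endothelial cells where pulmonary veins form, showed the opposite pattern. It had 9.22, 11.2 and 11.1 FPKM in atria and 4.21, 4.79 and 3.55 FPKM in ventricles, again without overlap, and was 2.40-fold higher in atria (log2 fold change 1.26, standard error 0.118, edgeR adjusted p = 9.18e-05). Sema3b, a further secreted class 3 ligand, was low in atria at 0.338, 0.822 and 0.383 FPKM and reached 2.33, 2.85 and 3.65 FPKM in ventricles (log2 fold change -2.60, standard error 0.353, edgeR adjusted p = 9.22e-04). All 3 calls held on leaving out any 1 of the 6 libraries, and none held when the 12 libraries were fitted together, where the adjusted p values were 0.181 (Sema3c), 0.431 (Sema3b) and 0.703 (Sema3d). That fit, which takes its spread from the HO libraries too, called 30 of 16494 genes in all. The epicardial markers moved in the direction of Sema3d, with 7 genes summing to 322 to 332 FPKM in atria and 158 to 159 FPKM in ventricles, and their part in the result was not tested.

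Sema3c and Sema3d, the pair with opposite chamber patterns, both lie on chromosome 5, from 17574816 to 17730267 and from 12383166 to 12588943 of GRCm38/mm10, on the plus strand. Sema3a (13396784 to 13603485) and Sema3e (14025276 to 14256689) lie between them. The 250 bases before the annotated start of each (RefSeq, GRCm38.p6, plus strand, chr5:17574566-17574815 for Sema3c and chr5:12382916-12383165 for Sema3d) are shown because these close paralogs differ in base composition there, with CG dinucleotides in capitals.
Sema3c: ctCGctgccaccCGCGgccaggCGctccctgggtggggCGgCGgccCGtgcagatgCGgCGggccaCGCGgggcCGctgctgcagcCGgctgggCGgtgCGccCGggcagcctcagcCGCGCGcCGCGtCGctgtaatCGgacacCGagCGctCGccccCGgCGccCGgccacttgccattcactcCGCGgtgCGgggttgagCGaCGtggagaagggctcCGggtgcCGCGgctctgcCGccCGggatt
Sema3d: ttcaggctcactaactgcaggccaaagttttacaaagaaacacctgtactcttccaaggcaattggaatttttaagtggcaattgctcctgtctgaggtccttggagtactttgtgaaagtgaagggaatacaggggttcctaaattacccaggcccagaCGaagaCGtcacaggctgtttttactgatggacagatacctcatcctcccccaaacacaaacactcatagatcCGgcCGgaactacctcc
The Sema3c sequence held 39 CG dinucleotides and was 78.4% G and C, and 1.56% of the 32841 RefSeq promoter windows of this length held as many CG or more. The Sema3d sequence held 4 CG and was 46.8% G and C, and 62.2% of windows held as many or more. The GATA motif (AGATAA or AGATAG or TGATAA or TGATAG on either strand) was in neither sequence. The 26 family genes matched by symbol had 37 windows, and 5 of these windows (13.5%) held the motif, against 26.5% of all windows. These 5 windows belonged to Plxna2, Plxnb3, Sema3a, Sema4d and Sema6d. The other motifs searched were in 0 of the 37 windows, against 1.12% to 12.4% of all windows. Family windows were richer in G and C, with a median of 64% against 52.4% in all windows. Their median number of CG was 13, against 6. The part of base composition in the motif shares was not tested.

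A further 4 members passed the adjusted p without reaching the fold limit, 3 of them higher in atria. Sema6c, a transmembrane semaphorin of class 6, had 2.89, 4.30 and 3.51 FPKM in atria and 1.87, 1.71 and 1.63 FPKM in ventricles (log2 fold change 0.97, edgeR adjusted p = 0.00647). The receptor Plxnc1, which binds Sema7a, had 5.53, 6.35 and 5.498 FPKM in atria and 2.76, 3.77 and 3.54 FPKM in ventricles (log2 fold change 0.72, standard error 0.137, edgeR adjusted p = 0.00661). Plxna4, a receptor that pairs with neuropilins for class 3 ligands, had 8.64, 9.77 and 9.55 FPKM in atria against 5.73, 6.66 and 7.24 FPKM in ventricles (log2 fold change 0.44, edgeR adjusted p = 0.0197). All 3 were separated between the chambers without overlap. Sema4d, a class 4 ligand of Plxnb1, was the member on the ventricular side, with 2.28, 2.93 and 3.10 FPKM in atria and 4.33, 3.57 and 3.65 FPKM in ventricles (log2 fold change -0.55, edgeR adjusted p = 0.0490). Without a fold limit, 7 members therefore passed, and the share of all genes that passes without it was not counted. An unadjusted p under 0.05 with edgeR was reached by 10 members, beside 26.9% of all genes tested. With library totals in place of TMM scaling, Sema6c passed the fold limit too.

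**Figure D2:**
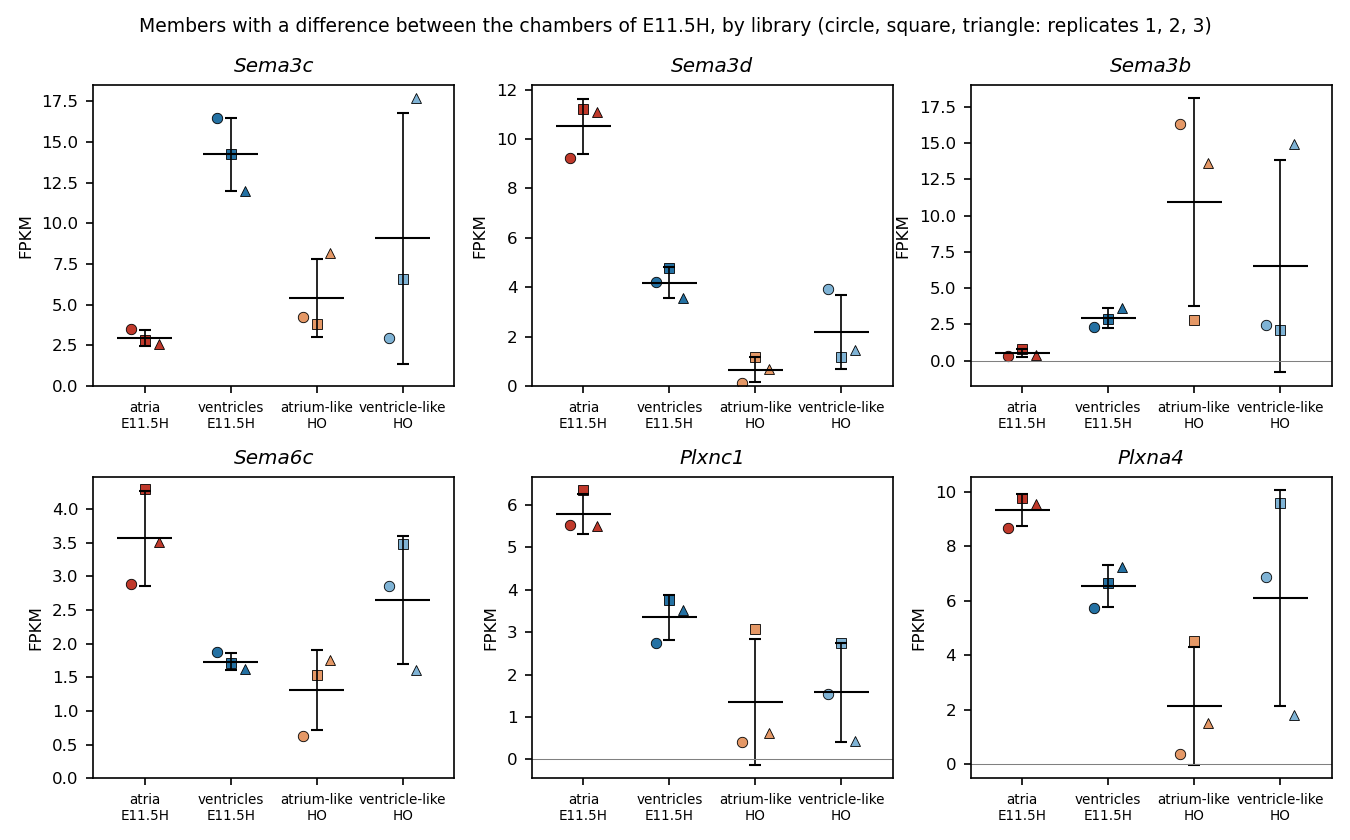
The panels show FPKM (vertical axes, linear) of Sema3c, Sema3d, Sema3b, Sema6c, Plxnc1 and Plxna4 in the 4 groups (horizontal axes), with a point for each library and a line with error bars for the mean ± SD (n = 3). The embryonic chambers are separated in every panel, and the HO libraries spread widely, as for Sema3c from 2.93 to 17.7 FPKM in ventricle-like parts.

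In all, 8 of the 31 members tested did not overlap between the chambers of E11.5H, compared with 33.1% of all genes tested. The eighth was Sema3a, a repellent of sympathetic axons, with 4.87, 6.99 and 7.16 FPKM in atria and 4.53, 4.54 and 4.18 FPKM in ventricles (log2 fold change 0.45, edgeR adjusted p = 0.0575). The main receptors showed small chamber differences that did not pass the test. The log2 fold changes were 0.11 (standard error 0.0714, edgeR adjusted p = 0.389) for Nrp1, 0.02 (0.0911, 0.925) for Plxnb2, 0.00 (0.0880, 0.987) for Plxnd1 and -0.18 (0.115, 0.377) for Plxna1. The libraries of both chambers overlapped in each of these receptors. Nrp2, which binds Sema3c and Sema3f, varied between replicates, with 1.64, 4.68 and 3.05 FPKM in atria and 2.61, 2.91 and 1.20 FPKM in ventricles.

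The other ligands were close to level or variable between the chambers. Sema6d, which regulates trabeculation, had 6.68, 8.24 and 7.30 FPKM in atria and 5.20, 7.98 and 6.71 FPKM in ventricles (log2 fold change 0.09, edgeR adjusted p = 0.771). Sema4c had 4.36, 6.75 and 5.33 FPKM in atria and 6.41, 8.61 and 4.74 FPKM in ventricles (log2 fold change -0.33, adjusted p = 0.350). Sema5a had 0.643, 1.54 and 1.09 FPKM in atria and 0.296, 0.543 and 0.692 FPKM in ventricles, an estimate above the fold limit with an edgeR adjusted p of 0.105 (log2 fold change 1.01, standard error 0.367). Its call depended on the setting, since it passed with DESeq2 and without replicate 1 of the atria. Sema7a, at 0.163, 0.135 and 0.0747 FPKM in atria and 0.0473, 0.225 and 0.113 FPKM in ventricles, was too low to order the chambers (log2 fold change -0.12, standard error 0.814, edgeR adjusted p = 0.949). The log2 fold changes were 0.29 for Sema3f, 0.56 for Sema6a, 0.27 for Sema4b and -0.04 for Sema5b, none of which passed. Among the remaining plexins, Plxna2 (0.09), Plxna3 (-0.06) and Plxnb1 (0.20) did not pass either, and the members below 1 FPKM had standard errors of 0.466 to 1.18.

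The second comparison asked whether the parts of HOs show chamber patterns of the same genes. Each HO was cut into both parts, whereas the main test treated the libraries as independent. No member was called between atrium-like and ventricle-like parts with edgeR, and 3 of the 31 tested had an unadjusted p under 0.05 (the lowest adjusted p was 0.750). Across all 15703 genes tested, 0% were called, and 5.66% had an unadjusted p under 0.05. DESeq2 and limma voom also called 0 members, with 59 and 0 calls over all genes. The common biological coefficient of variation was 0.677 between HO libraries and 0.211 between those of E11.5H, so that chamber differences of the embryonic size could go unseen here. The median log2 fold change of the members was -0.16 and that of all genes -0.03.

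Sema6a, a transmembrane ligand of Plxna2 and Plxna4, had the lowest p. It had 16.99, 7.44 and 10.9 FPKM in atrium-like parts and 1.94, 3.21 and 6.02 FPKM in ventricle-like parts, without overlap (log2 fold change 1.91, standard error 0.565, edgeR adjusted p = 0.750). Sema4a, a class 4 ligand known from immune and epithelial cells, had 35.3, 4.03 and 19.6 FPKM in atrium-like parts and 1.43, 1.34 and 6.35 FPKM in ventricle-like parts (log2 fold change 2.99, standard error 1.06, edgeR adjusted p = 0.750). Sema7a had 6.11, 1.002 and 2.42 FPKM against 1.41, 0.742 and 0.720 FPKM (log2 fold change 2.02, standard error 0.824, edgeR adjusted p = 0.750). All 3 were highest in replicate 1 of the atrium-like parts, the library with the most endoderm marker signal, and Sema4a and Sema7a overlapped between the parts. Without that library, the log2 fold changes were 1.39 for Sema6a, 2.07 for Sema4a and 0.92 for Sema7a. With the summed endoderm markers as a covariate, an alternative chosen after seeing the data, they were 1.21, 1.39 and 0.98.

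The embryonic chamber pattern of class 3 ligands was not detected in HOs. Sema3c had 4.24, 3.81 and 8.17 FPKM in atrium-like and 2.93, 6.59 and 17.7 FPKM in ventricle-like parts (log2 fold change -0.55, standard error 0.685, edgeR adjusted p = 0.841). Its direction rested on replicate 3 of the ventricle-like parts, without which the log2 fold change was 0.38. Sema3d was lower in atrium-like parts, at 0.134, 1.18 and 0.688 FPKM against 3.93, 1.19 and 1.47 FPKM, the reverse of the embryonic order (log2 fold change -1.66, standard error 0.820, edgeR adjusted p = 0.750). The groups did not overlap, although atrium-like replicate 2 and ventricle-like replicate 2 lay next to each other. Sema3b had 16.3, 2.78 and 13.7 FPKM in atrium-like parts and 2.47, 2.10 and 15.0 FPKM in ventricle-like parts (log2 fold change 1.01, edgeR adjusted p = 0.804). Of the 31 members tested, 2 (Sema6a and Sema3d) did not overlap between the HO parts, compared with 13.3% of all genes tested.

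The leading receptors and the ligands Sema4c, Sema5a and Sema6d, which had the highest mean of their class over all 12 libraries, did not pass between the HO parts either, with edgeR adjusted p values from 0.750 to 0.972. Nrp1 had 2.998, 22.3 and 9.16 FPKM in atrium-like and 20.6, 31.7 and 14.4 FPKM in ventricle-like parts (log2 fold change -0.88, standard error 0.632). Plxna1, which pairs with neuropilins, had 10.1, 14.2 and 13.1 against 10.8, 12.7 and 12.9 FPKM (0.21, standard error 0.158). Plxnb2 had 45.5, 43.2 and 49.6 against 35.3, 23.2 and 46.5 FPKM (0.58, standard error 0.304). The parts overlapped in each of these receptors, and Plxna1 varied least between libraries. Plxnd1 had 1.47, 10.8 and 1.94 against 2.04, 6.39 and 2.72 FPKM (0.42, standard error 0.794), and Plxnc1 0.401, 3.07 and 0.613 against 1.55, 2.76 and 0.434 FPKM (-0.16, standard error 0.911). Both were highest in replicate 2 of each part. Among the ligands, Sema4c had 1.35, 10.1 and 4.85 against 6.02, 13.5 and 3.94 FPKM (-0.45, standard error 0.712), Sema5a 0.760, 1.21 and 0.928 against 1.62, 2.56 and 0.951 FPKM (-0.66, standard error 0.402) and Sema6d 3.70, 9.57 and 2.30 against 4.77, 9.49 and 1.49 FPKM (0.10, standard error 0.740). These ligands, too, overlapped between the parts and were highest in replicate 2 of each.

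**Figure D3:**
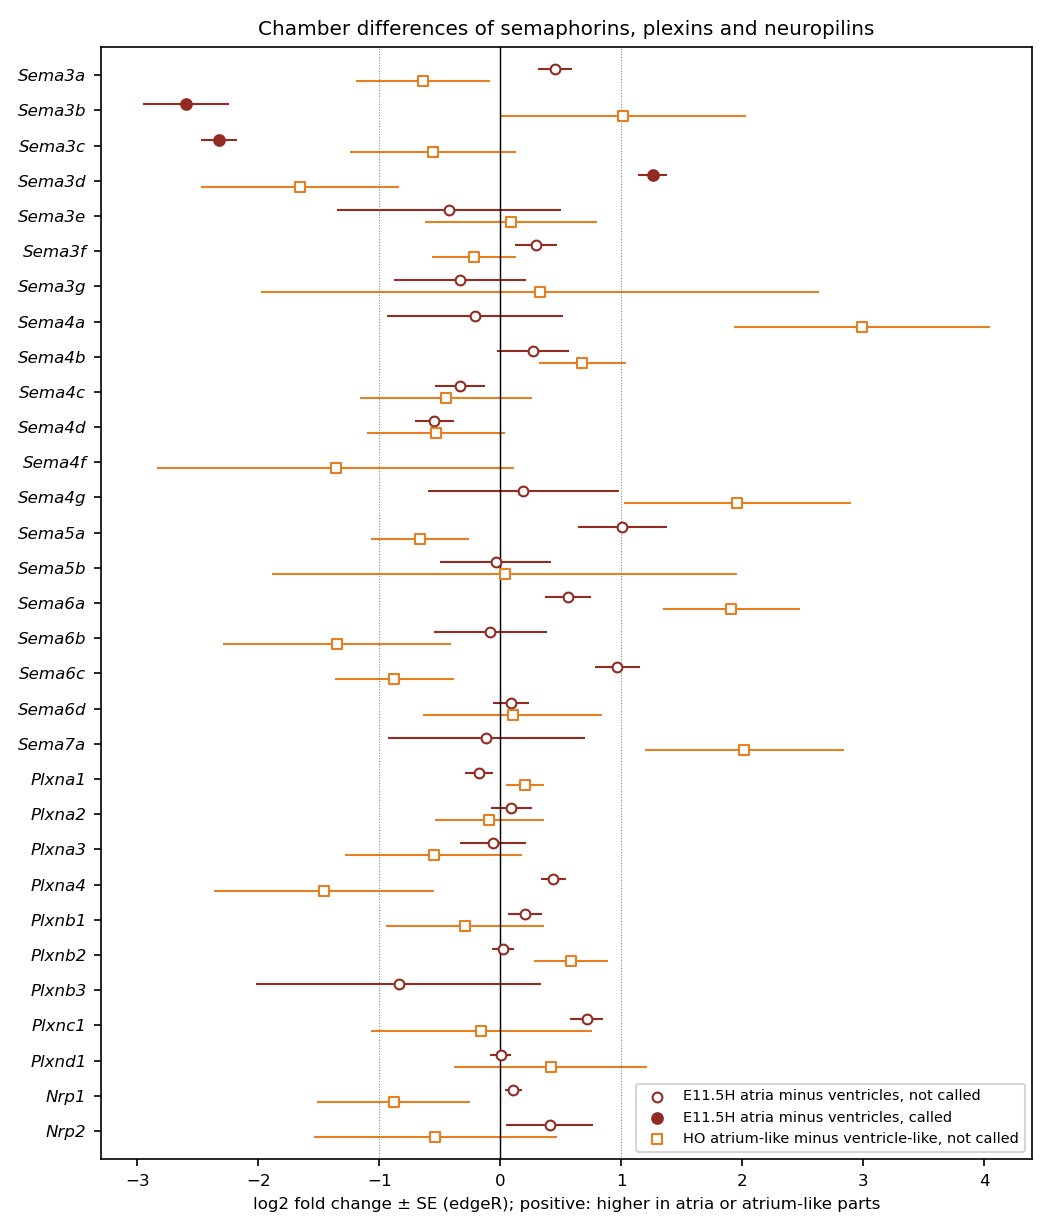
Each gene's log2 fold change ± standard error (horizontal axis, edgeR) is plotted for atria against ventricles of E11.5H (circles) and for the atrium-like against the ventricle-like HO parts (squares), with filled symbols for calls and dotted lines at the fold limit. Sema3b, Sema3c and Sema3d are the filled symbols, and the HO estimates carry wider errors, such as 0.820 against 0.118 for Sema3d.

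Whether the chamber difference itself differed between HOs and E11.5H was tested as an interaction over the 12 libraries. None of the 32 members was called with edgeR, against 0.152% of the 16494 genes tested, and 6 members had an unadjusted p under 0.05, as did 11.7% of all genes. These were Sema6c (-1.82 on the log2 scale, HOs minus E11.5H), Sema3d (-2.89), Sema3b (3.58), Sema5a (-1.65), Sema4a (3.15) and Sema3c (1.76), with edgeR adjusted p values from 0.250 to 0.419. DESeq2 called 3 members, Sema3b, Sema3d and Sema6c, and limma voom called 0. Over all 16494 genes, DESeq2 called 455 and limma voom 12, against 25 with edgeR. For Sema3b, Sema3c and Sema3d, which differed between the embryonic chambers, the test with edgeR therefore did not show that the chamber difference was another one in HOs.

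Among the members shown beside the endoderm markers, 3 ligands were high and 3 receptors low where these markers were high. The order of the 6 HO libraries by endoderm markers was ventricle-like 2, ventricle-like 1, atrium-like 2, atrium-like 3, ventricle-like 3 and atrium-like 1, from 30.3 to 11698 FPKM. In that order, Sema4a had 1.34, 1.43, 4.03, 19.6, 6.35 and 35.3 FPKM, and Sema4g, a class 4 ligand, had 0.583, 0.476, 0.946, 3.01, 2.07 and 5.99 FPKM. Sema3b stepped from 2.10, 2.47 and 2.78 FPKM in the first 3 to 13.7, 15.0 and 16.3 FPKM in the last 3 (atrium-like 3, ventricle-like 3 and atrium-like 1). Gut epithelium markers gave nearly the same order, with 629, 945, 1097, 3502, 2477 and 3582 FPKM over 8 genes, against 73.3 to 99.8 FPKM in E11.5H. Nrp1 went the other way, with 31.7, 20.6, 22.3, 9.16, 14.4 and 2.998 FPKM in the same order. Plxna4 had 9.59, 6.86, 4.53, 1.51, 1.80 and 0.366 FPKM, and Plxnc1 2.76, 1.55, 3.07, 0.613, 0.434 and 0.401 FPKM. This split of ligands and receptors did not hold for every member that was not shown. In the same order, the receptor Plxnb2 had 23.2, 35.3, 43.2, 49.6, 46.5 and 45.5 FPKM. The ligand Sema4c had 13.5, 6.02, 10.1, 4.85, 3.94 and 1.35 FPKM. The libraries share their cells and depth across these genes, the points are 6, the genes were chosen after their values were seen, and the part of either marker list in these levels was not tested.

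**Figure D4:**
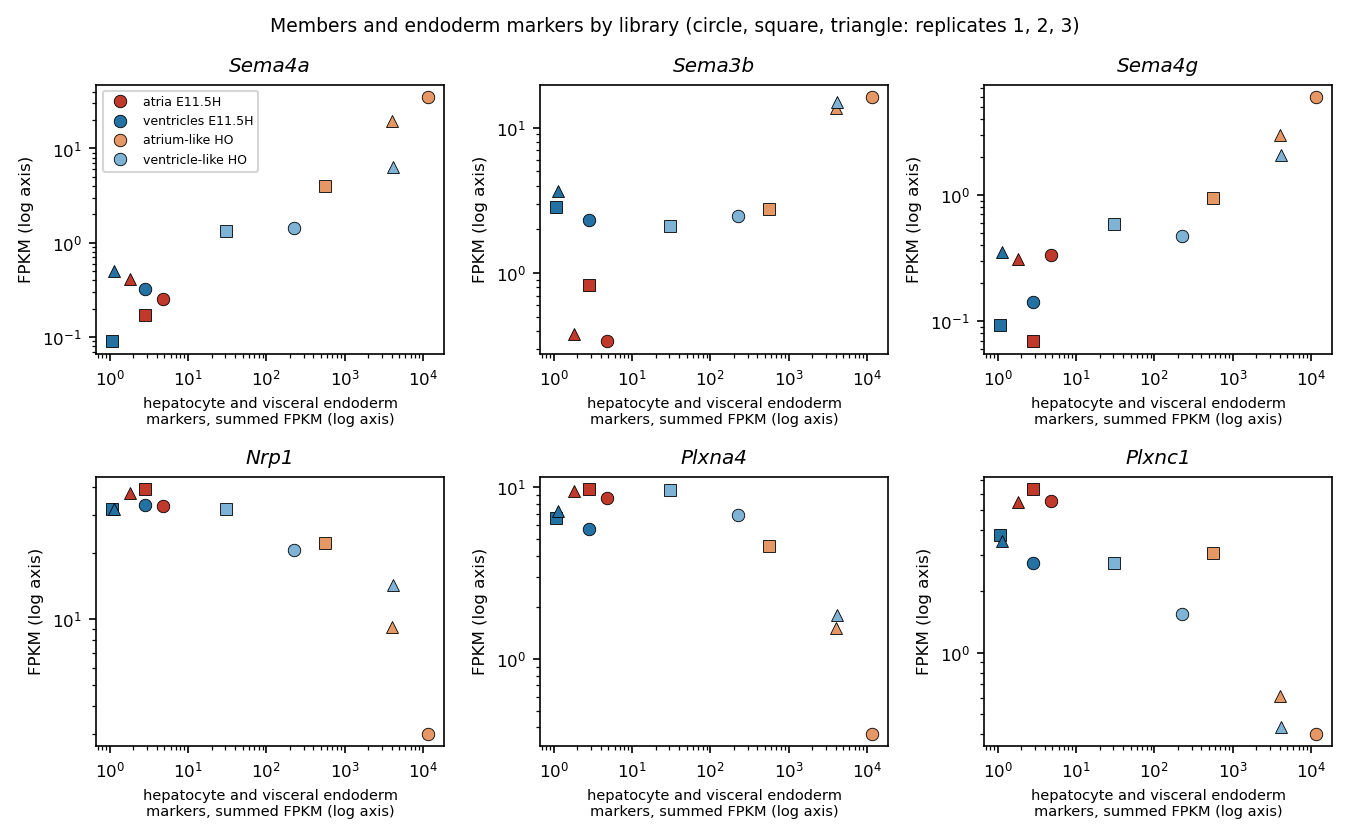
FPKM of Sema4a, Sema3b, Sema4g, Nrp1, Plxna4 and Plxnc1 (vertical axes, log scale) is plotted against the summed FPKM of 8 hepatocyte and visceral endoderm markers (horizontal axes, log scale) with a point for each of the 12 libraries, coloured by group. In HO libraries the ligands in the upper row are highest and the receptors in the lower row lowest at the right, where atrium-like replicate 1 lies at 11698 FPKM of markers, while all E11.5H libraries lie at 4.84 FPKM or less.

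Another set of members was highest in replicate 2 of the ventricle-like parts, the library with the most neural marker signal (304 FPKM over 8 genes, against 0.916 to 75.8 FPKM in the other HO libraries and 5.47 to 14.4 FPKM in E11.5H). Macrophage markers were high there too (702 FPKM) and highest in atrium-like replicate 2 (845 FPKM), against 77.5 to 467 FPKM in the other HO libraries. Of the 31 protein genes, 14 had their highest HO value in ventricle-like replicate 2, as did 27.1% of the 20824 genes listed above 0 in any HO library. These included Nrp2 at 11.7 FPKM against 1.09 to 7.10 FPKM in the other HO libraries, Sema4c at 13.5 against 1.35 to 10.1 FPKM, Sema4d at 10.9 against 1.88 to 6.73 FPKM, Sema6b at 5.25 against 0.473 to 1.03 FPKM and Plxna2 at 6.70 against 2.24 to 4.16 FPKM. In contrast, 13 had their lowest HO value in atrium-like replicate 1, as did 31.5% of all genes. The part of neural and macrophage markers in these levels was not tested.

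The third comparison set each HO part against its matching chamber. Of the 31 members tested in atrium-like parts against atria, 10 were called, 7 higher and 3 lower in HOs, and all 10 were semaphorins. In this comparison 24.8% of the 15418 genes tested were called, 16% as higher and 8.81% as lower, and the members' median log2 fold change of 0.08 was close to the 0.06 of all genes. The members' share of 32.3% was thus not far above this background, with 10 of 20 semaphorins, 0 of 8 plexins and 0 of 2 neuropilins called with edgeR. An unadjusted p under 0.05 with edgeR was reached by 6 plexins and 1 neuropilin, and by 44.4% of all genes tested. Of the 31 members tested, 20 did not overlap between the groups, against 54.4% of all genes tested.

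The ligands higher in atrium-like parts were led by members that the atria hardly expressed. Sema4a had 0.254, 0.172 and 0.411 FPKM in atria, against 35.3, 4.03 and 19.6 FPKM in atrium-like parts (log2 fold change 6.40, standard error 0.997, edgeR adjusted p = 0.00699). Sema3e, which signals through Plxnd1 without a neuropilin, rose from 0.0494, 0.0389 and 0.157 FPKM to 4.53, 1.81 and 6.52 FPKM (log2 fold change 5.92, standard error 0.833, edgeR adjusted p = 0.00543). Sema7a rose from 0.163, 0.135 and 0.0747 FPKM to 6.11, 1.002 and 2.42 FPKM (log2 fold change 4.93, standard error 0.894, edgeR adjusted p = 0.0109). All of these values in HOs exceeded those in atria. Sema3b rose from 0.338, 0.822 and 0.383 FPKM to 16.3, 2.78 and 13.7 FPKM (log2 fold change 4.66, standard error 0.831, edgeR adjusted p = 0.0103), and Sema4g from 0.335, 0.0690 and 0.308 FPKM to 5.99, 0.946 and 3.01 FPKM (log2 fold change 4.05, standard error 0.965, edgeR adjusted p = 0.0233). Sema6a (2.04) and Sema4b (1.47) were also called higher. Without atrium-like replicate 1 the log2 fold changes were 5.54 for Sema4a, 3.88 for Sema7a and 3.17 for Sema4g, and without atria replicate 3 that of Sema3e was 6.78.

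The ligands lower in atrium-like parts included the atrial ligand of the embryo. Sema3d fell from 9.22 to 11.2 FPKM in atria to 0.134 to 1.18 FPKM in atrium-like parts (log2 fold change -3.88, standard error 0.662, edgeR adjusted p = 0.00915), a level 14.7-fold higher in atria. Sema3a fell by 1.87 on the log2 scale (edgeR adjusted p = 0.0269), from 4.87, 6.99 and 7.16 FPKM to 1.85, 2.13 and 0.620 FPKM. Sema6c fell by 1.30 (edgeR adjusted p = 0.0489), from 2.89, 4.30 and 3.51 FPKM to 0.634, 1.54 and 1.76 FPKM. Among the 10 members called, Sema3d and Sema3e were called in each of 7 other settings and on leaving out each of 6 libraries. The number of calls fell to 3, 4 and 3 without atria replicate 1, 2 and 3, respectively, and was 16 without atrium-like replicate 2. Calls over all genes moved likewise, from 3821 to 1662, 1690, 1726 and 5495. Epicardial markers were lower in atrium-like parts too (33.0 to 91.4 FPKM against 322 to 332 FPKM in atria). In atrium-like replicates 1, 2 and 3 they summed to 91.4, 33.0 and 66.0 FPKM, beside 0.134, 1.18 and 0.688 FPKM of Sema3d, the opposite order. In ventricle-like replicates 1, 2 and 3 they summed to 195, 12.3 and 148 FPKM, beside 3.93, 1.19 and 1.47 FPKM of Sema3d, the same order. The part of these markers in the fall of Sema3d was not tested.

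In ventricle-like parts against ventricles, 8 of the 32 members tested were called, 6 higher and 2 lower in HOs. Here 18.9% of the 15094 genes tested were called, 11.6% as higher and 7.35% as lower, beside 25% of the members, and the members' median log2 fold change was 0.23 against 0.09 for all genes. Sema3e again rose from near absence, from 0.191, 0.113 and 0.0148 FPKM to 2.86, 2.29 and 8.95 FPKM (log2 fold change 5.38, standard error 0.996, edgeR adjusted p = 0.0127). Sema4a rose from 0.326, 0.0898 and 0.501 FPKM to 1.43, 1.34 and 6.35 FPKM (log2 fold change 3.21, standard error 0.939, edgeR adjusted p = 0.0469). Sema7a rose from 0.0473, 0.225 and 0.113 FPKM to 1.41, 0.742 and 0.720 FPKM (log2 fold change 2.80, standard error 0.742, edgeR adjusted p = 0.0356). In these 3 ligands every HO library again lay above every ventricle library. Sema4f had 365 fragments in the 3 ventricle-like libraries (75, 207 and 83) and 8, 0 and 0 in ventricles, and its fitted log2 fold change of 5.33 (edgeR adjusted p = 0.0421) depends on the prior count. Sema5a (1.64) and Sema4b (1.05) were called higher as well.

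Plxnd1, the receptor of Sema3e in endothelium, was the one receptor called in either HO part. It fell from 17.1, 19.1 and 19.0 FPKM in ventricles to 2.04, 6.39 and 2.72 FPKM in ventricle-like parts (log2 fold change -2.42, standard error 0.424, edgeR adjusted p = 0.0109). In atrium-like parts it had 1.47, 10.8 and 1.94 FPKM against 17.3, 20.7 and 20.3 FPKM in atria (log2 fold change -1.96, standard error 0.698, edgeR adjusted p = 0.0760), and it passed there with DESeq2, with limma voom, with the 12 libraries in 1 fit and without atrium-like replicate 2 (-3.27). The 10 endothelial and endocardial markers summed to 168 to 203 FPKM in E11.5H and to 13.1 to 75.0 FPKM in HOs, with Tie1 and Emcn at 0 in at least 1 atrium-like library. Atrium-like replicate 2 had both the most endothelial marker signal (75.0 FPKM) and the most Plxnd1 (10.8 FPKM) of the HO libraries, and the part of these markers in the result was not tested. Sema5b, a class 5 ligand, was the other member called lower, from 1.92, 0.952 and 0.817 FPKM to 0.134, 0.376 and 0.0745 FPKM (log2 fold change -2.75, standard error 0.744, edgeR adjusted p = 0.0373).

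The number of members called in ventricle-like parts was 3, 0 and 1 without ventricles replicate 1, 2 and 3, respectively, and 3, 6 and 10 without ventricle-like replicate 1, 2 and 3. Calls over all genes were 1201, 1116 and 1212 without a ventricle library and 2114, 3316 and 3725 without a ventricle-like library, against 2859 with all. Plxnd1 was called in each of 7 other settings and on leaving out 4 of the 6 libraries. Without ventricle-like replicate 3, the log2 fold change was 4.49 for Sema3e and 2.04 for Sema4a. Without ventricle-like replicate 2 it was -3.61 for Sema5b and -3.02 for Plxnd1. Sema7a had 3.44 without ventricles replicate 2, Sema3e 6.08 and Sema4f 9.84 without ventricles replicate 1. In this comparison 12 of the 32 members did not overlap, against 50.7% of all genes tested.

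**Figure D5:**
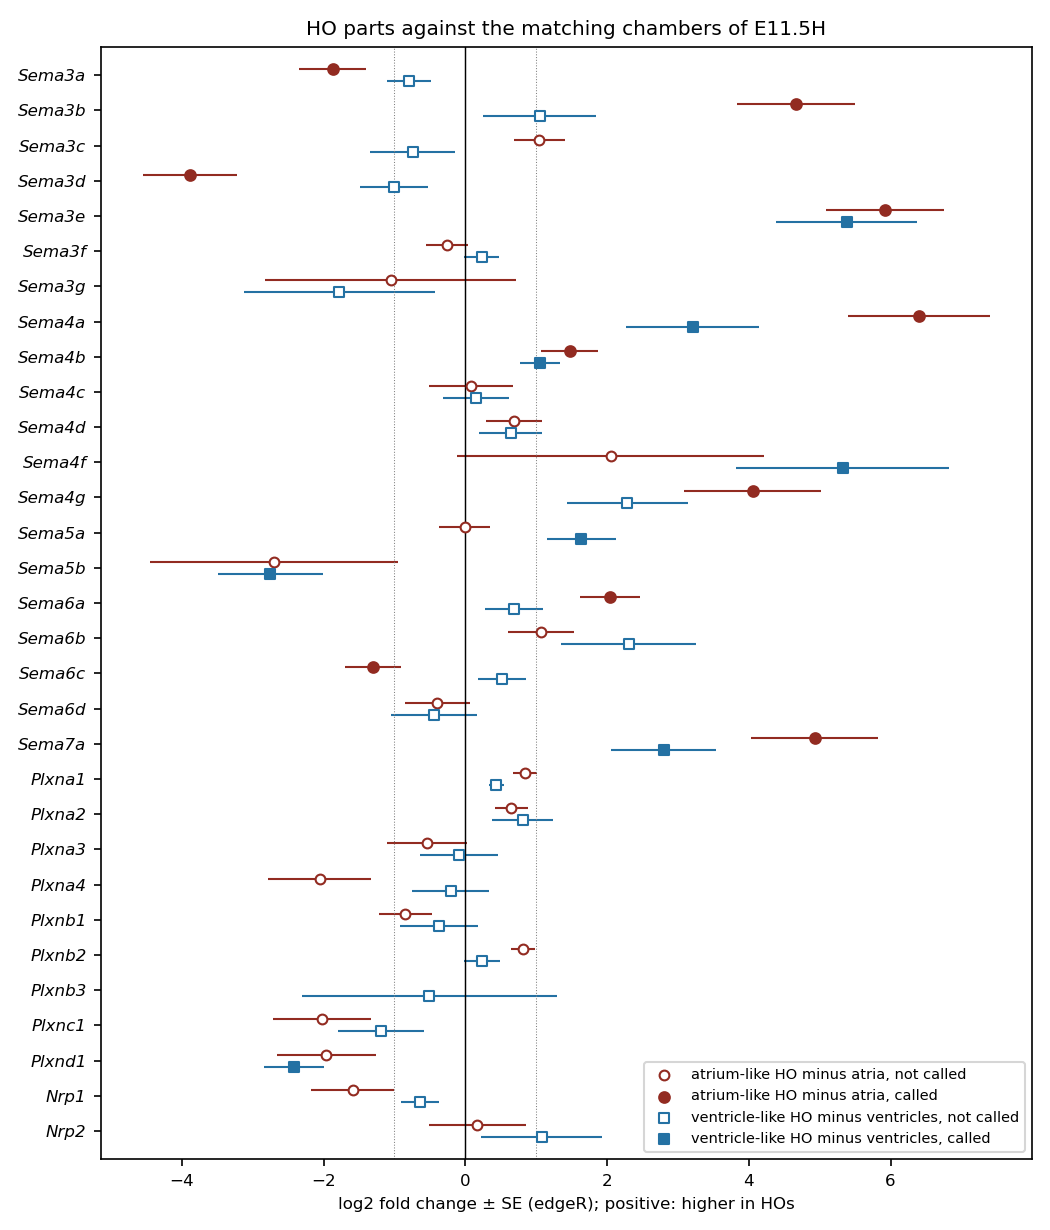
The log2 fold change ± standard error (horizontal axis, edgeR) of each gene is plotted for atrium-like parts against atria (circles) and ventricle-like parts against ventricles (squares), with filled symbols for calls and dotted lines at the fold limit. Sema3e, Sema4a, Sema4b and Sema7a are filled on the right in both comparisons, and Plxnd1 at -2.42 is the one filled receptor.

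The other receptors except Plxnb3 were detected in every HO library. Plxnb2, a receptor of class 4 semaphorins, had 45.5, 43.2 and 49.6 FPKM in atrium-like parts, above the 25.8 to 32.9 FPKM of atria (log2 fold change 0.81, standard error 0.174, edgeR adjusted p = 0.0171), and 35.3, 23.2 and 46.5 FPKM in ventricle-like parts. Plxna1 had 10.1 to 14.2 FPKM in the 6 HO libraries and 6.32 to 8.82 FPKM in E11.5H, with log2 fold changes of 0.84 (standard error 0.168, edgeR adjusted p = 0.0142) in atrium-like and 0.44 (0.109, 0.0294) in ventricle-like parts. Both changes passed the adjusted p, and neither reached the fold limit. Nrp1 had 2.998, 22.3 and 9.16 FPKM in atrium-like parts (log2 fold change -1.59, standard error 0.583, edgeR adjusted p = 0.0826) and 20.6, 31.7 and 14.4 FPKM in ventricle-like parts (-0.64, 0.267, 0.120). Every HO library was below every library of the matching chamber in Nrp1. In ventricle-like parts this separation rested on 31.66 FPKM in ventricle-like replicate 2 against 31.76 FPKM in ventricles replicate 2. Nrp1 passed in atrium-like parts with DESeq2, with limma voom, with the 12 libraries in 1 fit, and without atrium-like replicate 1 or 2.

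Plxnc1 had 0.401, 3.07 and 0.613 FPKM in atrium-like and 1.55, 2.76 and 0.434 FPKM in ventricle-like parts (log2 fold changes -2.02 and -1.19 against atria and ventricles, edgeR adjusted p = 0.0689 and 0.185). Plxna4 had log2 fold changes of -2.06 and -0.21 in the same order, Plxnb1 of -0.84 and -0.37, Plxna3 of -0.54 and -0.09, Plxna2 of 0.65 and 0.81, and Nrp2 of 0.17 and 1.08, and none of these passed with edgeR. In atrium-like parts Plxna4 and Plxnc1 passed with DESeq2, with limma voom and with the 12 libraries in 1 fit. Plxnb3, with at most 0.247 FPKM in any library, had too few counts to be tested between the HO parts and between atrium-like parts and atria. Of the ligands not described above, Sema3f (-0.26 and 0.23), Sema6d (-0.39 and -0.44), Sema4c (0.08 and 0.15) and Sema4d (0.69 and 0.64) stayed within the fold limit in both comparisons, while Sema6b (1.06 and 2.30) and Sema3g (-1.05 and -1.78) exceeded it without passing the test. Sema5a, called in ventricle-like parts with 1.62, 2.56 and 0.951 FPKM against 0.296, 0.543 and 0.692 FPKM, had a log2 fold change of -0.01 in atrium-like parts (standard error 0.357, edgeR adjusted p = 0.989). Mean levels in atria, ventricles, atrium-like and ventricle-like parts, in this order, were 4.28, 3.34, 3.20 and 4.18 FPKM for Sema3f and 4.53, 3.75, 2.26 and 3.09 FPKM for Plxnb1. They were 1.57, 1.55, 0.990 and 1.58 FPKM for Plxna3 and 2.31, 2.07, 3.23 and 3.89 FPKM for Plxna2, while Sema3g stayed at or below 0.931 FPKM in every library. Sema3c had log2 fold changes of 1.04 (standard error 0.363, edgeR adjusted p = 0.0709) against atria and -0.74 (0.604, 0.384) against ventricles.

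Other genes of the pathway were taken from lists of co-receptors and partners (16 genes), other ligands of neuropilins (5) and intracellular effectors (29). Between the embryonic chambers 0 of 13 co-receptors tested (6 at an unadjusted p under 0.05 with edgeR), 1 of 5 ligands and 2 of 29 effectors were called, against 4.9% of all genes. The unadjusted p with edgeR was under 0.05 for 26.9% of all genes. The ligand was Vegfa, which encodes a growth factor of vessels, which was lower in atria (log2 fold change -1.02, standard error 0.174, edgeR adjusted p = 0.00353). The effectors were Dpysl5, a collapsin response mediator (1.43), and Rnd2, a small GTPase that binds plexins (-1.30). Between the HO parts, 0 of the 16 co-receptors, 5 ligands and 29 effectors were called with edgeR. Of these, 1 (Dpysl5) had an unadjusted p under 0.05, as did 5.66% of all genes.

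Against the matching chambers, 3 of the 5 other ligands of neuropilins were called in atrium-like and 5 of 5 in ventricle-like parts, beside 24.8% and 18.9% of all genes. Vegfa rose by 3.37 in atrium-like and 2.43 in ventricle-like parts on the log2 scale (edgeR adjusted p = 0.00161 and 0.00136), Pgf by 1.66 and 1.77, and Vegfb fell by 1.31 and 1.22. Vegfc (-1.79) and Vegfd (2.04) were called in ventricle-like parts. Of the co-receptors and partners, 6 of 14 tested were called in atrium-like and 7 of 14 in ventricle-like parts (42.9% and 50%), against the same shares of all genes. The VEGF receptors Kdr (-3.69, atrium-like) and Flt4 (-4.11, ventricle-like) were lower, as were Erbb2 (-1.43 and -1.33) and Itga1 (-3.02 and -2.35) in both parts. Met (2.59, atrium-like) and Nrcam (4.57, ventricle-like) were higher. Trem2 rose by 4.32 and 6.59, with Tyrobp called higher in ventricle-like parts (4.13), and 7 macrophage markers, Tyrobp among them, summed to 77.5 to 845 FPKM in HOs and 31.9 to 63.9 FPKM in E11.5H, whose part was not tested. Cd72, a receptor of Sema4d, had 487.8 fragments in ventricle-like parts and 2.11 in ventricles, and Timd2, a receptor of Sema4a, had 24, 11 and 75 in the 3 atrium-like libraries and 0 in all 3 of atria. Of the 29 effectors, 6 were called in atrium-like parts (Rras and Pak1 higher, Dpysl2, Dpysl5, Fyn and Farp1 lower) and 4 in ventricle-like parts (Rnd1, Rnd3 and Pak1 higher, Rnd2 lower), which is 20.7% and 13.8% and below the shares of all genes.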

How the data were processed

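RNA-seq of 12 libraries was used, 3 in each of 4 groups taken from the labels. The authors aligned reads to mm10 with STAR and deposited, per gene and library, expected counts (23.8% of values not whole) and FPKM values scaled by library total. The counter, the tool versions and the use of strand are not given in the sources used here. Reads of genes that share bases on opposite strands can therefore not be told apart. No member shared an exon base with a listed gene on the opposite strand.

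Expected counts were rounded to whole numbers, filtered (filterByExpr, minimum count 10), scaled by TMM and tested with edgeR 4.0.16 (quasi-likelihood) in R 4.3.3, each comparison on its own libraries and the interaction on all 12. Genes were called at a Benjamini-Hochberg adjusted p under 0.05 over all genes tested and an absolute log2 fold change over 1. DESeq2 1.42.0, limma 3.58.1 (voom), other scalings, no filter, all libraries in 1 fit and leaving out each library were alternatives. The tests were tested on simulated data first. FPKM served for levels only. Every member was named. Full values were given for members called between the embryonic chambers, for the 3 lowest p between HO parts, for the 5 largest called changes against each chamber, for Sema3c and for the most abundant member of each class. The members and all gene lists were chosen with earlier results of these data known.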

Additional observations from a re-analysis of the deposited data

Results flagged for a closer look

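The chamber difference of Sema3d had opposite signs in the 2 tissues, and the libraries of the compared groups did not overlap in either. In E11.5H it was higher in atria (log2 fold change 1.26), and in HOs the estimate was negative without passing (-1.66, edgeR adjusted p = 0.750). In HOs the separation rested on 1.176 FPKM in atrium-like replicate 2 against 1.187 FPKM in ventricle-like replicate 2. The difference between these differences was -2.89 on the log2 scale (standard error 0.849), with an unadjusted p of 0.00639 and an adjusted p of 0.261 with edgeR over all genes tested, so it did not pass. It was called with DESeq2, which called 455 of 16494 genes in the interaction, and not with limma voom. The groups of 3 libraries were too small for the test of single outlying libraries.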

How the results depend on the processing

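Each comparison was repeated under other settings. Of 688 alternative values for 52 fold changes, 575 kept their direction and side of the threshold, 22 came to be called, 54 lost the call and 37 changed direction. In E11.5H, 7 members passed without a fold limit, for which the share of all genes was not counted. With the 12 libraries in 1 fit 0 members passed, and that fit called 30 of 16494 genes. Against atria DESeq2 called 16 members, and limma voom 10, of which 3 were higher and 7 lower in HOs. Over all 15418 genes there, DESeq2 called 4794 and limma voom 3433, against 3821 with edgeR. Against ventricles 3 were called without the count filter and 5 with limma voom, beside 2603 of 20094 and 2288 of 15094 genes. DESeq2 called 3 members in the interaction, beside 455 of 16494 genes. Leaving out 1 library gave 3 to 5 members in E11.5H, 3 to 16 against atria and 0 to 10 against ventricles. Over all genes the calls were 538 to 765, 1662 to 5495 and 1116 to 3725, in this order.

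The replicate numbers could not be taken to pair the libraries. Same-numbered libraries had deviations correlated at 0.00710 to 0.0431 across embryonic chambers and 0.0174, 0.589 and 0.360 across HO parts. For differently numbered libraries the correlations were -0.0376 to 0.0169 and -0.671 to 0.436, in this order. Each HO was cut into both parts, but no source says that a number marks the same HO or heart. With the replicate number as a block, 4 members were called in E11.5H, 0 between HO parts, 8 against atria, 3 against ventricles and 0 in the interaction. Calls over all genes with the block were 621, 0, 2806, 2003 and 5, in this order. The block also called Plxnd1 (-2.48) and Plxnc1 (-2.50) against atria.

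Direction changed for 13 fold changes, of main absolute value up to 0.55. In E11.5H, Sema7a was 0.0775 with limma and 0.0131 with the block, and Plxnd1 -0.00938 with the 12 libraries in 1 fit. Between HO parts, Sema6d was -0.0109 with library totals, and with the endoderm covariate Plxnc1 was 1.25 and Sema4c 0.51. Against atria, Sema5a was 0.00642 with DESeq2 size factors, 0.00671 with DESeq2, 0.0854 with limma and 0.0628 with the block, and Sema4c -0.11 with limma and -0.23 with the block. Against ventricles, Sema4c was -0.00047 with limma. On leaving out 1 library, the lowest and highest values in E11.5H were -0.52 and 0.54 for Sema7a, -0.0642 and 0.0665 for Plxnd1, -0.0481 and 0.10 for Plxnb2 and -0.0751 and 0.23 for Sema6d. Between HO parts they were -0.50 and 0.82 for Sema6d, -1.37 and 0.49 for Plxnc1, -1.11 and 0.18 for Sema4c, -0.85 and 1.03 for Plxnd1 and -1.001 and 0.38 for Sema3c. They were -0.27 and 0.30 for Sema5a and -0.62 and 0.49 for Sema4c against atria, and -0.46 and 0.43 for Sema4c and -0.0508 and 0.48 for Plxnb2 against ventricles. The cause of these changes was not tested. With 3 libraries a group and the spread between HO libraries, differences between HO parts could be missed.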
